A study of Mus musculus with 6 samples.

Results

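Genes of the surface molecules by which a macrophage and a T cell exchange signals were followed across 6 conditions of RAW264.7 cells. They were the 10 genes Cd80, Cd86, Icosl, Cd40, Tnfsf9, Cd274, Pdcd1lg2, Havcr2, Icam1 and Vcam1, taken by name from the 24062 genes of the deposited count tables, and all 10 were found there. All 10 are called ligand genes below for short, although Cd40 and Havcr2 encode receptors. Of these genes, 8 had at least 10 counts in every library. Pdcd1lg2 and Vcam1 stayed under 10 counts in all 6 libraries and are given as counts only.

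RAW264.7 is a mouse macrophage line kept in culture. Bone marrow is given as the tissue in the labels and this line in their culture protocol, so the cells are not primary bone marrow macrophages. M0 cells received no stimulus, M1 cells received LPS at 100 ng/mL with IFN-γ at 20 ng/mL for 24 h, and M2 cells received IL-4 at 20 ng/mL for 24 h. RM0, RM1 and RM2 were cells of these 3 states given 10 Gy from a 137Cs source and then held for 24 h. Each condition was 1 library made from RNA pooled from 5 wells, so the spread between cultures was not measured. The sources do not say whether the M0, M1 and M2 cells were also held for those 24 h, so irradiation and the longer time after the stimulus cannot be told apart.

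A T cell that meets antigen reads a second set of signals on the presenting cell. CD80 and CD86 engage CD28 to promote activation and CTLA-4 to restrain it, CD40 receives help from CD40L on T cells, and PD-L1 and PD-L2, the products of Cd274 and Pdcd1lg2, dampen the response through PD-1. ICAM-1 and VCAM-1 hold the cells together by binding integrins, and in macrophages LPS and IFN-γ are well known to raise several of these molecules through NF-κB and IRF1.

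Cd274 and Pdcd1lg2 are neighbours on mouse chromosome 19, on the same strand, with 22824 bases between the listed end of the first and the listed start of the second. Promoter sequences from RefSeq (GRCm38.p6) were found for 6 of the 10 genes, Cd80, Cd274, Pdcd1lg2, Icosl, Icam1 and Havcr2. The 250 bases before the start are printed for Cd274 and Pdcd1lg2, because these neighbours differed widely in counts, up to 8687 against at most 5, and for Icam1, because it was high in M1 and not in RM1. The start is that of the RefSeq promoter. For Icam1 the printed bases end at 21015939, before the listed gene start of 21015960. Capitals mark the match to a searched motif.
Cd274 (chr19:29367188-29367437, + strand): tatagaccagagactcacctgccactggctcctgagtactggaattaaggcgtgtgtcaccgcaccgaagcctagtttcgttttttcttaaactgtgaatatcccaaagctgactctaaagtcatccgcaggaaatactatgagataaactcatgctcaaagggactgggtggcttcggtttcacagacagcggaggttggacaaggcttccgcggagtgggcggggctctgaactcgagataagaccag
Pdcd1lg2 (chr19:29410669-29410918, + strand): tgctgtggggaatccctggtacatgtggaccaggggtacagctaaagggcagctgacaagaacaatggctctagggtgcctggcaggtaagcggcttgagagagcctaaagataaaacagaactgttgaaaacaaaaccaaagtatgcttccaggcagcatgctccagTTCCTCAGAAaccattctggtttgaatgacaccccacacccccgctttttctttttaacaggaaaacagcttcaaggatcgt
Icam1 (chr9:21015690-21015939, + strand): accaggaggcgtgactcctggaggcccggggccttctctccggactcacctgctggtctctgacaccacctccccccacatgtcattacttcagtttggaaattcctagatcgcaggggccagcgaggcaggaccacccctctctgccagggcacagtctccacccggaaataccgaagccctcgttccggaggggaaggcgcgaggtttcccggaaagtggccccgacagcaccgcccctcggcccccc
The searched letters were GGGNNNTTCC for NF-κB, GAAANNGAAA for the interferon-stimulated response element and TTCNNNNGAA for STAT6, each on both strands. Among the 6 promoters, Pdcd1lg2 held the STAT6 letters at positions -82 to -73 from the start. The other 5 promoters, those of Cd274 and Icam1 among them, held none of these exact letters in this window. Over the 32851 RefSeq mouse promoters, 5.85% held the STAT6 letters, 4.65% the NF-κB letters and 2.98% the response element letters. A match in letters is a description of the sequence, not a site at which binding was measured.

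The libraries held between 17894937 and 18870516 counts. Of 9 macrophage markers, Csf1r, Cd68, Itgam, Lyz2 and Cd14 had between 4855 and 580239 counts in every library, whereas Mertk had 3 to 8 counts. The T cell markers Cd3e, Cd3d, Cd3g, Cd4 and Cd8a had at most 1 count in any library, and the 6 T cell markers found of 7 listed summed to 178 to 244 counts, nearly all of Lck. The 5 B cell markers summed to 1 to 5 counts and were at 4 or fewer each. The dendritic cell markers summed to 18 to 58 counts with Flt3, Clec9a and Cd209a at 2 or fewer, the endothelial markers to 62 to 122 counts with Tek and Tie1 at 1 or fewer, and the fibroblast markers to 128 to 764 counts with Col1a2 and Col3a1 at 0. The fibroblast sum was nearly all Dcn, which had 627 counts in M1 and 726 in RM1 against 113 to 177 elsewhere, and its part in the results was not tested. Nos2, which makes nitric oxide in M1 cells, had 169925 counts in M1 and 129631 in RM1 against 10749 to 22038 elsewhere, Cxcl10 had 1278 in M1 and 242 in RM1, Arg1 had 31 in M2 and 89 in RM2 against at most 5 elsewhere, and Ccl22 had 590 in M2 against 767 in M0.

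Cd80 (chr16:38458933-38486932, + strand, mm10) encodes the B7 protein CD80. Its level in M0, M1, M2, RM0, RM1 and RM2 was 73.2, 275, 79.3, 96.2, 309 and 125 CPM, which are counts set to a common total after TMM correction of library size for composition, from 1451 to 5146 raw counts. The 2 libraries with LPS and IFN-γ were far above the other 4, and each irradiated library was above its non-irradiated partner. Cd86 (chr16:36603869-36666077, - strand) encodes the second B7 ligand of CD28. Its levels in the same order were 8.87, 33.3, 7.99, 9.34, 19.1 and 7.26, so that RM1 lay between M1 and the 4 libraries without LPS. Icosl (chr10:78069368-78079525, + strand), the ligand of the T cell receptor ICOS, stayed low throughout, at 3.93, 3.04, 3.65, 3.22, 4.26 and 2.42 CPM from 45 to 78 raw counts. The 95% Poisson intervals of Icosl in M0, M1, M2, RM0 and RM1 all overlapped. Poisson intervals here cover counting error only and say nothing of the spread between cultures.

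Cd40 (chr2:165055636-165071654, + strand), the TNF receptor family member through which T cells license antigen presenting cells, was measured at 29.3, 172, 28.0, 27.1, 77.1 and 25.9 CPM in M0, M1, M2, RM0, RM1 and RM2. The 4 libraries without LPS and IFN-γ fell within a narrow range, M1 was the highest, and RM1 lay below the midpoint between them. In bulk RNA, fewer cells of a type and less RNA per cell cannot be told apart. Tnfsf9 (chr17:57106250-57107757, + strand), which encodes the TNF family ligand of the receptor CD137, was at 37.3, 114, 32.2, 35.0, 75.7 and 25.9 in the same order. M1 was again highest and RM1 second, and RM2 was the lowest of the 6. The antisense gene Gm11110, which overlaps Tnfsf9, had 155, 95, 139, 142, 97 and 109 counts in this order. Since the strand setting of the counting is not given in the sources used here, reads of these partners cannot be told apart.

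Cd274 (chr19:29367438-29388094, + strand), the gene of PD-L1, had the widest range of the ligands. Its levels, again in the order M0, M1, M2, RM0, RM1 and RM2, were 68.0, 588, 75.3, 81.6, 502 and 94.2 CPM, and no interval of the M1 and RM1 libraries came near those of the other 4. Pdcd1lg2 (chr19:29410919-29472927, + strand), the gene of PD-L2 and a known IL-4 target in primary macrophages, had 1, 5, 1, 1, 0 and 2 counts. Neither library with IL-4 had more than 2 counts, so no change could be measured between any of the IL-4 libraries and its control at this depth. Havcr2 (chr11:46454931-46481254, + strand), the gene of the inhibitory receptor TIM-3, was flatter than Cd274, at 25.1, 27.2, 27.3, 24.4, 35.1 and 30.1 CPM. Under TMM scaling RM1 was its highest library, and the RM1 interval, 32.4 to 38.1, lay above those of M0, M1, M2 and RM0.

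Icam1 (chr9:21015960-21028796, + strand), the ligand of the integrin LFA-1, was plentiful in the unstimulated cells. The same 6 libraries gave 151, 262, 133, 161, 138 and 131 CPM. Under TMM scaling only the M1 library stood out, while RM1 fell among the libraries without LPS and IFN-γ, below M0 and RM0. Vcam1 (chr3:116110020-116129688, - strand), the ligand of the integrin VLA-4, had 1 count in RM1 and 0 counts in the other 5 libraries, which at this depth allows up to 3 counts in each. All 10 genes are annotated as protein coding. The listed spans cover 68.7% of the annotated gene for Cd80, 69.5% for Icosl, 62.0% for Tnfsf9 and 92.5% for Cd40, and at least 99.6% for the others. Cd274, Icam1 and Vcam1 overlap the annotated antisense genes AC119228.1, Gm47079 and Gm43109, which have no row in the count tables. Pdcd1lg2 overlaps the antisense gene A930007I19Rik, which had 12, 3, 12, 12, 4 and 19 counts in M0, M1, M2, RM0, RM1 and RM2. With the strand setting not given, reads of this pair cannot be told apart either.

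**Figure D1:**
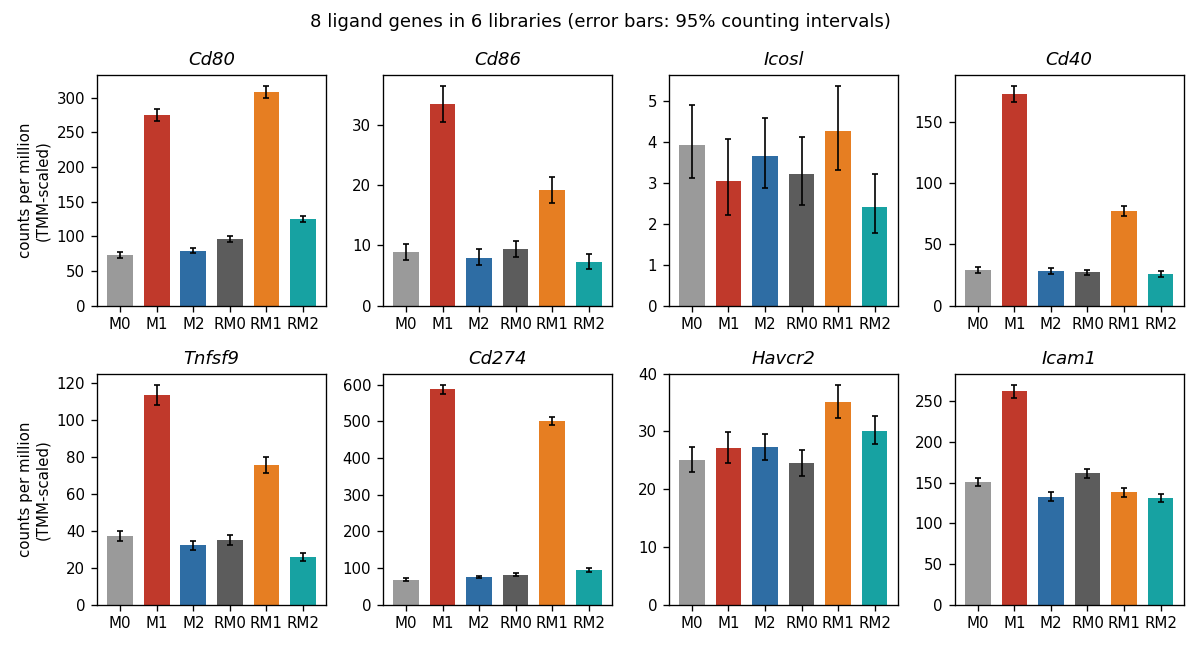
Scaled CPM (vertical axes, each from 0) of the 8 measured ligand genes in the 6 libraries (horizontal axes), with 95% Poisson counting intervals as error bars and 1 library per bar. Cd80, Cd86, Cd40, Tnfsf9 and Cd274 are high in both M1 and RM1, whereas Icam1 is high in M1 at 262 and not in RM1 at 138.

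Levels of different genes were set side by side as CPM per kb of annotated exon. In M0 the order from the top was Icam1 at 34.6, Tnfsf9 at 28.9, Cd80 at 19.8, Cd274 at 18.8, Havcr2 at 9.21, Cd40 at 8.62, Cd86 at 2.42 and Icosl at 0.851 CPM per kb. The intervals of Cd80 and Cd274 overlapped, as did those of Havcr2 and Cd40. In M1 the order became Cd274 at 162, Tnfsf9 at 88.2, Cd80 at 74.3, Icam1 at 60.1, Cd40 at 50.6, Havcr2 at 9.99, Cd86 at 9.11 and Icosl at 0.659, and only Havcr2 and Cd86 overlapped. By exon length the PD-L1 gene was thus behind 3 others in M0 and ahead of all in M1. It was also first in RM1, at 138 CPM per kb, ahead of Cd80 at 83.3 and Tnfsf9 at 58.7. In M2 and RM0 Icam1 was first at 30.5 and 37.0, and with exon length Icosl was last in all 6 libraries. In RM2 Cd80 was first at 33.8, ahead of Icam1 at 30.1 with intervals that did not overlap, but with the longest transcript as the length Icam1 was first at 51.8 and Cd80 second at 39.4. With the listed span, introns included, as the length, Tnfsf9 was first in all 6 libraries, in M1 at 75.5 ahead of Cd274 at 28.4, Cd274 was behind Tnfsf9 and Icam1 in M0, and Cd86 rather than Icosl was last in all but M1. Cd86 was below Cd80 in every library under all 3 lengths.

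**Figure D2:**
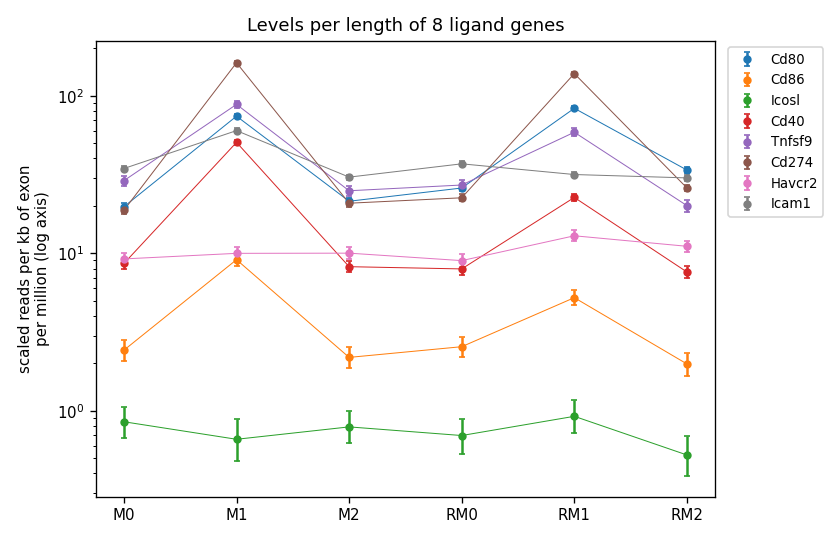
Scaled CPM per kb of exon (vertical log axis) of the 8 measured ligand genes in the 6 libraries, with 95% Poisson counting intervals. Thin lines only join the points of 1 gene. By exon length Cd274 lies behind 3 genes in M0 and is first in M1 and RM1, and Icosl is last in the 6 libraries.

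The first comparison asked what LPS with IFN-γ did to the ligand genes, without and with irradiation. Of the 8 measured genes, 5 were called higher in M1 than in M0, where a call needs a change of at least 2-fold and at least 10 counts in 1 of the 2 libraries, and such a call compares 2 libraries with no replicate check. Over all genes measured in this pair 9.37% were called higher, 13.3% lower and 22.7% in either direction. Cd274 had the largest log2 fold change, 3.11 with an exact 95% Clopper-Pearson interval of 3.03 to 3.19, or 8.63-fold. Cd40 followed at 2.55 (2.42 to 2.69), then Cd80 at 1.91 (1.82 to 2.00), Cd86 at 1.90 (1.66 to 2.17) and Tnfsf9 at 1.61 (1.48 to 1.74). Icam1 was 1.74-fold higher at a log2 fold change of 0.80 (0.73 to 0.87), under the 2-fold limit. Havcr2 at 0.12 (-0.076 to 0.31) and Icosl at -0.36 (-0.93 to 0.18) had intervals that held 0. Pdcd1lg2, with 5 counts in M1 against 1 in M0, had an interval of -0.41 to 8.31. Over the 8 genes the median was 1.75 on the log2 scale, against -0.026 over all genes measured. The values depend on the scaling, with a TMM factor of 0.8004 for M1 and 1.087 for M0. With libraries scaled by their totals alone the same 5 genes were called, with Cd274 at 2.67. Icam1 was then at 0.36 and Havcr2 at -0.32, both outside the intervals above.

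In the irradiated cells the same 5 genes were called higher in RM1 than in RM0, where 6.16% of all genes were. The log2 fold changes were 2.62 for Cd274 (2.54 to 2.70), 1.68 for Cd80 (1.61 to 1.76), 1.504 for Cd40 (1.36 to 1.66), 1.11 for Tnfsf9 (0.98 to 1.25) and 1.03 for Cd86 (0.77 to 1.30). Cd40 thus differed 5.86-fold between the stimulated and unstimulated libraries without irradiation and 2.84-fold with it. Havcr2 was higher in RM1 at 0.52 (0.35 to 0.70), and Icam1 was lower at -0.23 (-0.30 to -0.15). With libraries scaled by their totals alone, Cd86 at 0.78 and Tnfsf9 at 0.86 no longer reached 2-fold, leaving 3 of the 5 genes called. With the trends of each library with GC content and length removed, an alternative chosen after the data had been seen, 4 of the 5 were called and Cd86 was at 0.92.

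**Figure D3:**
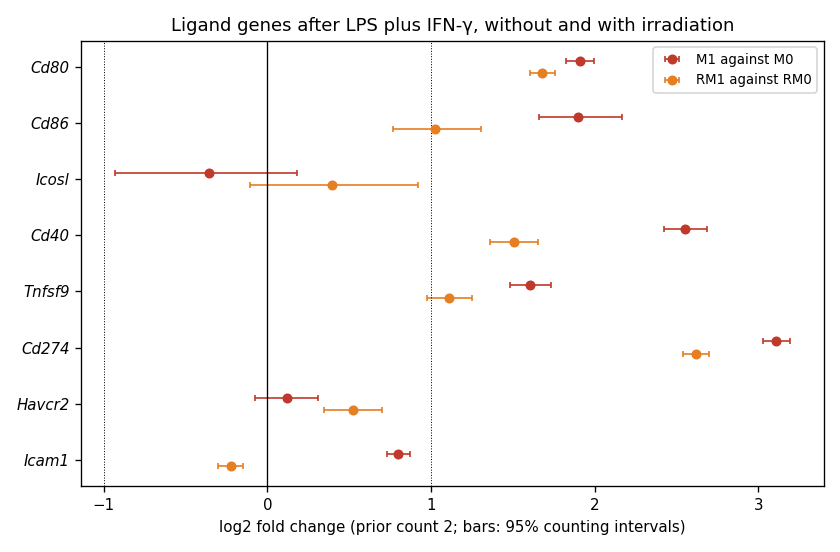
Log2 fold change after LPS plus IFN-γ (horizontal axis) for the 8 measured ligand genes (vertical axis), without irradiation (M1 against M0) and with it (RM1 against RM0), with 95% counting intervals. Dotted lines mark 2-fold. The RM1 point lies to the left of the M1 point for Cd80, Cd86, Cd40, Tnfsf9, Cd274 and Icam1.

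The effect shared by both radiation levels was tested in 1 fit over all 6 libraries with terms for polarization and irradiation, by edgeR's quasi-likelihood test with Benjamini-Hochberg adjustment over 11804 genes. The radiation levels stand in for replicates, and 2 residual degrees of freedom remain. With this test 5 of the 8 genes rose with LPS plus IFN-γ, beside 23.2% of all genes that rose and 23.9% that fell. Cd274 rose by 2.87 ± 0.16 on the log2 scale (SE, adjusted p = 1.05e-06), Cd40 by 2.07 ± 0.23 (adjusted p = 6.98e-05) and Cd80 by 1.80 ± 0.14 (adjusted p = 7.59e-06). Cd86 rose by 1.49 ± 0.21 (adjusted p = 0.000293) and Tnfsf9 by 1.36 ± 0.14 (adjusted p = 5.01e-05). Each of these 5 genes passed under all 13 alternatives to this fit. Havcr2 at 0.32 ± 0.14 (adjusted p = 0.0784), Icam1 at 0.31 ± 0.21 (adjusted p = 0.238) and Icosl at 0.049 ± 0.29 (adjusted p = 0.905) did not pass. For Icam1 this rested on single libraries, since it passed at 0.77 without RM1 (adjusted p = 4.73e-09) and at 0.59 without RM0 (adjusted p = 0.0268), and stood at -0.20 without M1. Havcr2 passed at 0.48 without M1 (adjusted p = 0.00500) and at 0.35 with the GC and length trends removed (adjusted p = 0.0270).

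For IL-4, none of the 8 ligand genes was called between M2 and M0, where 1.44% of all genes were, and none between RM2 and RM0, where 2.61% were. The log2 fold changes between M2 and M0 ran from -0.21 for Tnfsf9 to 0.15 for Cd274. The interval of Tnfsf9 was -0.37 to -0.059 and that of Cd274 was 0.041 to 0.25, so these differences were small but larger than counting error. The intervals of Icam1, -0.26 to -0.11, and Cd80, 0.013 to 0.22, left out 0 as well. After removal of the GC and length trends, Tnfsf9 was at -0.14, Icam1 at -0.115, Cd80 at 0.030 and Cd274 at 0.091. In the irradiated cells, the intervals between RM2 and RM0 again cover counting error only. How many of all genes had intervals that left out 0 was not counted. Tnfsf9 was at -0.43 (-0.60 to -0.27), Cd86 at -0.36 (-0.69 to -0.041) and Icam1 at -0.30 (-0.37 to -0.22), all lower in RM2. Cd80 at 0.38 (0.29 to 0.47), Havcr2 at 0.30 (0.13 to 0.48) and Cd274 at 0.21 (0.11 to 0.30) were higher in RM2, while Icosl at -0.39 (-0.98 to 0.15) and Cd40 at -0.065 (-0.24 to 0.11) held 0 in their intervals. The edgeR fit over the 6 libraries called 0 of the 8 genes for IL-4 and 0.169% of all genes, and DESeq2 also called 0 of the 8. At an unadjusted p under 0.05 there was 1 of the 8, beside 1190 of all 11804 genes. It was Tnfsf9, at -0.33 ± 0.14 (adjusted p = 0.486). With both the M1 and RM1 libraries left out Tnfsf9 passed at -0.31, in a fit where 1348 of all genes passed. With only M1 or only RM1 left out it was at -0.32 in each.

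The next comparison asked how the ligand genes differed after 10 Gy in each state. None of the 8 was called between RM0 and M0, where 1.54% of all genes were, or between RM2 and M2, where 1.97% were. Between RM1 and M1, 1 of the 8 was called lower, beside 2.25% of all genes, and 0 of the 8 higher, beside 3.08% of all genes. The called gene was Cd40, at a log2 fold change of -1.16 (-1.26 to -1.06), a 2.24-fold lower level. Icam1 was close to the limit at -0.93 (-1.002 to -0.85), and Cd86 at -0.80 (-1.01 to -0.60) and Tnfsf9 at -0.59 (-0.69 to -0.48) were lower as well. Cd274 was only slightly lower in RM1, at -0.23 (-0.27 to -0.18). The median over the 8 genes was -0.41, and that over all genes was -0.012. Scaled by library totals alone, Cd40 was still called, at -1.02, while Icam1 was at -0.78 and Cd86 at -0.66. Tnfsf9 was then at -0.44 and Cd274 at -0.086, and Cd80 at 0.31, Icosl at 0.61 and Havcr2 at 0.51 were higher in RM1. For Cd40, Icam1, Tnfsf9 and Cd274 these values lay outside the intervals above.

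Under TMM scaling Cd80 was higher in each irradiated library than in its partner. The log2 fold changes were 0.39 (0.30 to 0.49) in RM0 against M0, 0.17 (0.11 to 0.23) in RM1 against M1 and 0.66 (0.57 to 0.75) in RM2 against M2, all under 2-fold. With the trends with GC content and length removed, the RM1 value was -0.035, while those of RM0 and RM2 were 0.47 and 0.56. Cd274 was higher in RM0 at 0.26 (0.16 to 0.37) and in RM2 at 0.32 (0.22 to 0.42), in contrast to RM1. Havcr2 was higher in RM1 than in M1 at 0.37 (0.18 to 0.56). Icosl had wide intervals, -0.074 to 1.06 in RM1 against M1 and -1.15 to -0.049 in RM2 against M2.

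**Figure D4:**
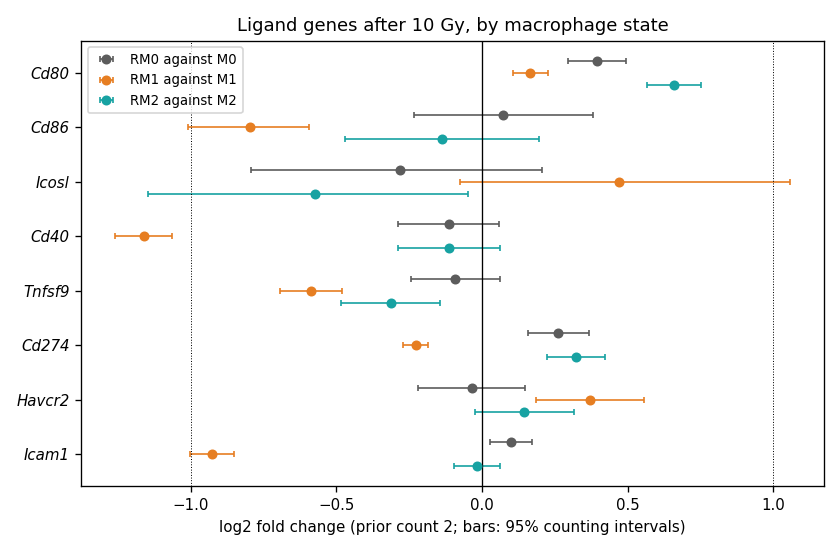
Log2 fold change after 10 Gy (horizontal axis) for the 8 measured ligand genes (vertical axis) in M0, M1 and M2 cells, with 95% counting intervals. Dotted lines mark 2-fold. For Cd40, Icam1 and Cd86 the RM1 point lies far below 0, at -1.16, -0.93 and -0.80, while the RM0 and RM2 points lie near 0.

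An effect of irradiation common to the 3 states was not found for any ligand gene by edgeR's test with polarization in the fit. It called 0 of the 8 genes, beside 0.508% of all genes, and DESeq2 called 0 as well. At an unadjusted p under 0.05 there were 3 of the 8, beside 1734 of all 11804 genes. They were Cd80 at 0.40 ± 0.11 (adjusted p = 0.162), Cd40 at -0.49 ± 0.18 (adjusted p = 0.265) and Tnfsf9 at -0.34 ± 0.12 (adjusted p = 0.231). Without the M0 library Cd40 was at -0.67 and Tnfsf9 at -0.46, and without RM0 they were at -0.67 and -0.46 as well. Over M0, M2 and their irradiated partners alone, Cd80 passed at 0.54 (adjusted p = 9.89e-06), in a fit where 534 of all genes passed. With either M1 or RM1 left out Cd80 was at 0.53 in both.

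Whether irradiation acted differently in M1 cells was tested by an interaction term, the irradiation effect in M1 less the one shared by M0 and M2. The M1 and RM1 libraries are matched exactly in this fit, 1 residual degree of freedom remains, and the error is borrowed from M0, M2 and their partners and from all genes. By edgeR's test 4 of the 8 genes were lower in this sense, beside 4.51% of all genes. Cd40 had -1.05 ± 0.18 (adjusted p = 1.10e-06), Icam1 -0.97 ± 0.17 (adjusted p = 1.02e-06), Cd86 -0.77 ± 0.23 (adjusted p = 0.0177) and Cd274 -0.52 ± 0.17 (adjusted p = 0.0266) on the log2 scale. Cd80 at -0.36 ± 0.17 (adjusted p = 0.159), Tnfsf9 at -0.39 ± 0.18 (adjusted p = 0.168), Havcr2 at 0.31 ± 0.20 (adjusted p = 0.350) and Icosl at 0.92 ± 0.40 (adjusted p = 0.136) did not pass. Cd40 and Icam1 also passed with DESeq2 (adjusted p = 0.00415 and 0.000286) and under the other 4 alternatives. Cd274 did not pass with DESeq2 (adjusted p = 0.0939) or without the filter on counts (adjusted p = 0.0898), Cd86 did not pass without the filter (adjusted p = 0.0662), and DESeq2 gave no adjusted p for Cd86. Because M1 and RM1 are 1 library each, a difference between their cultures and an effect of irradiation cannot be told apart.

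Library composition moved along with this comparison. The trend of RM1 against M1 with GC content and length amounted to -0.21 on the log2 scale at the GC content of Icam1, 55.4%, and to -0.21 for Tnfsf9 at 52.5%, but to 0.14 for Cd86 at 43.2% and to -0.0022 for Cd40 at 48.8%. With these trends removed, RM1 against M1 was -0.72 for Icam1, -0.38 for Tnfsf9, -0.94 for Cd86 and -1.16 for Cd40. In the interaction test Cd40 then had -1.07 (adjusted p = 0.000544), Icam1 -0.83 (adjusted p = 0.00163), Cd86 -0.93 (adjusted p = 0.0189) and Cd274 -0.67 (adjusted p = 0.00532), and Cd80 passed as well at -0.55 (adjusted p = 0.0114).

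Ratios of raw counts within a library need no scaling between libraries. Cd80 per Cd86 was 8.24 in M0 and 8.25 in M1, 9.93 in M2 and 10.3 in RM0, but 16.1 in RM1 and 17.2 in RM2. The exact 95% intervals of RM1, 14.4 to 18.1, and of RM2, 14.6 to 20.5, lay above those of the other 4 libraries, the highest of which ended at 12.1. The balance of these B7 genes was thus the same in M1 as in M0 within its interval, and RM1 and RM2 held more Cd80 for each Cd86. The GC contents of both genes are close, at 42.7% and 43.2%.

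The PD-L1 gene was set against Cd40, Cd80 and Icam1 in the same way. Over M0, M1, M2, RM0, RM1 and RM2, Cd274 per Cd40 was 2.32, 3.41, 2.69, 3.01, 6.51 and 3.63, so that RM1 stood apart with an interval of 6.14 to 6.91. Cd274 per Cd80 was 0.930, 2.14, 0.9502, 0.848, 1.62 and 0.753 in that order, and was thus lower in RM1 than in M1. Icam1 per Cd274 was 2.21, 0.446, 1.76, 1.98, 0.275 and 1.39 in the same order. M1 and RM1 held fewer Icam1 than Cd274 counts, and the other 4 libraries held more.

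**Figure D5:**
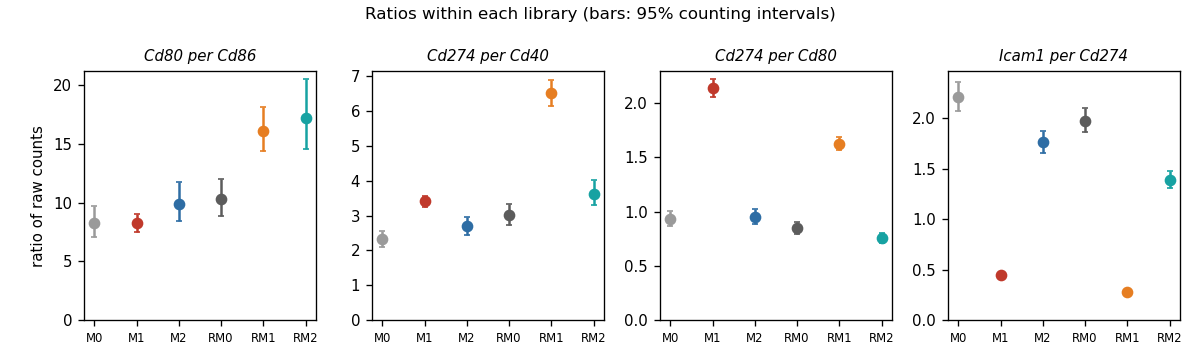
Ratio of raw counts of 2 ligand genes within each library (vertical axes, each from 0) for the 6 libraries (horizontal axes), with exact 95% counting intervals. Cd80 per Cd86 is highest in RM1 and RM2, at 16.1 and 17.2, and Cd274 per Cd40 is highest in RM1 at 6.51.

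The ligand genes also differed in which other genes they resembled over the 6 libraries. Likeness was the root mean square difference between mean-centred log2 profiles, over 10190 genes whose mean count was 50 or more, and is a description with no test, since the profiles share libraries and scaling. Nearest to Cd274 was Ms4a6d at 0.115, with Pearson's r of 0.996 over the 6 libraries. Nearest to Cd40 was Tmsb10 at 0.0539, nearest to Cd86 was Calm3 at 0.0573, nearest to Cd80 was Qsox1 at 0.129 and nearest to Tnfsf9 was Parp10 at 0.0630. Icam1 was most like Jund at 0.0775, Havcr2 most like Mynn at 0.0217 and Icosl most like AI464131 at 0.111. Second in order were Urah for Cd274, Ftl1 for Cd40, Sepw1 for Cd86, Scimp for Cd80, Tapbp for Tnfsf9, Ten1 for Icam1, Ddhd1 for Havcr2 and Zfp688 for Icosl. Among the ligands themselves, Cd86 and Tnfsf9 were closest, at 0.102, and Cd274 and Icosl were farthest apart, at 1.30.

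Around these genes, 12 of 22 other ligands of the B7, TNF and checkpoint families were measured between M1 and M0, of which 6 were called higher and 0 lower, beside 9.37% and 13.3% of all genes, with a median log2 fold change of 0.78. Cd200, which quiets myeloid cells through its receptor, had 23, 163, 16, 42, 229 and 32 counts in M0, M1, M2, RM0, RM1 and RM2, and rose with LPS plus IFN-γ by 2.93 ± 0.26 on the log2 scale (adjusted p = 1.68e-05). Tnfrsf14 had 5, 24, 5, 7, 11 and 10 counts and rose by 1.85 ± 0.60 (adjusted p = 0.0272). Tnfsf14, its TNF family ligand, had 15 counts in RM1 and at most 4 elsewhere, too few libraries for the fit. Between RM1 and M1, 1 of 13 was called higher and 1 lower, beside 3.08% and 2.25% of all genes.

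Of 19 inhibitory receptors and regulators of myeloid cells, 14 were measured between M1 and M0, with 3 called higher and 4 lower, beside the same 9.37% and 13.3%. Lair1, a collagen receptor, had 115, 17, 137, 99, 24 and 145 counts and fell with LPS plus IFN-γ by 2.06 ± 0.27 on the log2 scale (adjusted p = 0.000207). Btla, a receptor of the CD28 family, had 10 counts in M1 and 9 in RM1 against at most 4 elsewhere. Pdcd1, the gene of PD-1, the receptor of PD-L1, had 46, 24, 52, 33, 34 and 16 counts, with a log2 fold change of -1.55 in RM2 against M2, but did not pass the irradiation test at -0.58 ± 0.34 (adjusted p = 0.456).

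The next list held 12 genes of binding partners of these molecules, mostly receptors but also Cd40lg, the gene of CD40L. Of these, 8 were measured and 0 were called between M1 and M0, where 22.7% of all genes were. Tnfrsf9, the gene of CD137, the receptor of the Tnfsf9 product, had 451, 330, 312, 686, 886 and 667 counts. It was higher in every irradiated library than in its partner, at log2 fold changes of 0.62, 1.25 and 1.12 in the M0, M1 and M2 states. It rose with irradiation by 1.00 ± 0.13 in the shared fit (adjusted p = 0.0102), whereas its ligand gene Tnfsf9 was at -0.34 ± 0.12 and did not pass.

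In the list of adhesion molecules near Icam1 and Vcam1, 9 of 14 were measured between M1 and M0, with 1 called higher and 2 lower, beside 9.37% and 13.3% of all genes. Icam5, a relative of Icam1, had 77, 202, 47, 93, 147 and 76 counts, rose with LPS plus IFN-γ by 1.38 ± 0.29 (adjusted p = 0.00311) and had an interaction of -1.11 ± 0.31 (adjusted p = 0.00890). Icam2 had 49, 2, 35, 31, 5 and 33 counts and fell with LPS plus IFN-γ by 3.13 ± 0.51 (adjusted p = 0.000707). Selp, the gene of P-selectin, had 37 counts in M0 and 10 in M1 and did not pass at -0.89 ± 0.41 (adjusted p = 0.0945). The list as a whole had a median of 0.047 between M1 and M0.

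All 16 genes of CD40 signaling were measured, with 3 called higher in M1 than in M0 and 0 lower, beside 9.37% and 13.3% of all genes. Between RM1 and M1, 0 were called, where 3.08% of all genes were higher and 2.25% lower. In the LPS plus IFN-γ fit 6 of the 16 rose and 4 fell, beside 23.2% and 23.9% of all genes. Tnfaip3, which restrains NF-κB, had 452, 2352, 501, 619, 1841 and 640 counts and rose with LPS plus IFN-γ by 2.32 ± 0.22 (adjusted p = 2.37e-05). Nfkbia, the NF-κB inhibitor, rose by 1.58 ± 0.13 (adjusted p = 1.16e-05) and Nfkb2, a subunit of NF-κB, by 0.85 ± 0.17 (adjusted p = 0.00256). In the interaction test Tnfaip3 was at -0.95 ± 0.18 (adjusted p = 1.31e-05) and Nfkb2 at -0.71 ± 0.17 (adjusted p = 0.00111). These were the 2 of the 16 that passed, both lower, beside 4.51% of all genes that were lower. Nfkbia was at -0.0525 ± 0.16 (adjusted p = 0.882).

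Of 20 genes that carry interferon and IL-4 signals, 19 were measured, with 9 called higher in M1 than in M0 and 3 lower in RM1 than in M1. Over all genes, 9.37% were called higher in M1 than in M0 and 2.25% lower in RM1 than in M1. Irf1, the transcription factor through which IFN-γ acts on many genes, had 419, 8628, 405, 404, 1710 and 343 counts in M0, M1, M2, RM0, RM1 and RM2. RM1 thus held far fewer Irf1 counts than M1, at a log2 fold change of -2.51, and the interaction was -2.39 ± 0.18 (adjusted p = 1.79e-35). Irf8, a factor of the macrophage lineage, had 1493, 6225, 1317, 1552, 2052 and 1086 counts and an interaction of -1.69 ± 0.17 (adjusted p = 4.10e-20). Socs1, which shuts off JAK signaling, had 18, 205, 35, 24, 63 and 26 counts and an interaction of -1.83 ± 0.42 (adjusted p = 0.000865). These 3 were the genes called lower in RM1, and 4 of the 19 were lower in the interaction test, beside 4.51% of all genes. Cd274 had 1349, 8687, 1528, 1598, 8362 and 1868 counts. Its log2 fold change in RM1 against M1 was -0.23 (-0.27 to -0.18) under TMM scaling and -0.086 with library totals. By edgeR its interaction was -0.52 ± 0.17 (adjusted p = 0.0266), which DESeq2 did not call. Whether Cd274 is tied to these 3 genes in the cells was not tested.

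Of 15 other activation markers of antigen presenting cells, 12 were measured between M1 and M0, with a median log2 fold change of 2.23. Of these, 8 were called higher and 1 lower, beside 9.37% and 13.3% of all genes. Slamf7 had 66, 1473, 21, 90, 862 and 26 counts, rose by 4.20 ± 0.28 (adjusted p = 3.05e-06) and had an interaction of -1.38 ± 0.27 (adjusted p = 5.58e-05). Il27, a subunit of the cytokine IL-27, had 84, 1052, 70, 79, 350 and 65 counts, rose by 3.31 ± 0.35 (adjusted p = 5.44e-05) and had an interaction of -1.69 ± 0.26 (adjusted p = 1.53e-08). Ccr7, the receptor for migration to lymph nodes, had 39, 1, 18, 37, 3 and 10 counts and fell by 3.85 ± 0.57 (adjusted p = 0.000416). Between M2 and M0, 5 of 11 were called lower and 0 higher, beside 0.442% of all genes called lower, among them Slamf7 at a log2 fold change of -1.59 and Ccr7 at -1.06. The IL-4 term of the edgeR fit called 0 of 12, beside 0.169% of all genes. Within this list 4 of 12 were lower in the interaction test, beside 4.51% of all genes, and 0 higher.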

How the data were processed

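RNA was sequenced from 6 pooled RAW264.7 samples, 1 per condition, and the authors deposited raw HTSeq counts per gene, with gene coordinates of mm10. The submitters' processing notes name Trimmomatic 0.36, HISAT2 2.2.1 and HTSeq 0.11.3, and strand and multi-mapping settings are not given in the sources used here. The annotation columns of the tables were used only for coordinates. All per-sample columns were assigned.

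Counts were scaled by TMM in edgeR (version 4.0.16, R 4.3.3), with factors from genes that reached 10 counts in 3 or more libraries. Log2 fold changes between 2 libraries used a prior count of 2, and 3 counts or fewer in both was no measurement. The fits used edgeR's quasi-likelihood test on genes that reached 10 counts in 2 or more libraries. DESeq2 was version 1.42.0. Intervals, at 95%, cover counting error only. For 99.1% of tested genes GC content and length were taken from the longest GENCODE M21 transcript. Scripts were tested on simulated data. Other steps used scipy 1.17.1, numpy 2.4.6 and pandas 2.3.3 in Python 3.11.15, and figures used matplotlib 3.10.9.

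The members and lists were chosen with earlier results of these data known. Named genes were all members, up to 3 genes per list called in any of the 7 pairs with the largest change in the 5 main pairs, the 2 genes most like each member, and 4 polarization markers. Alternatives were other scalings, prior counts, filters, thresholds, lengths, covariates, DESeq2, left-out libraries and GC and length trends removed, the last of these added after the data had been seen.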

Additional observations from a re-analysis of the deposited data

Results flagged for a closer look

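For 4 ligand genes the irradiation effect in M1 cells differed from that shared by M0 and M2 cells by edgeR's interaction test with Benjamini-Hochberg adjustment, with 1 residual degree of freedom and 1 library per condition. The difference on the log2 scale was -1.05 for Cd40, -0.97 for Icam1, -0.77 for Cd86 and -0.52 for Cd274. Cd274 was higher in RM0 and RM2 than in their partners and lower in RM1, while Cd40, Cd86 and Icam1 were lower in RM1 and within 0.14 of their partners on the log2 scale in RM0 and RM2. The time after the stimulus and irradiation cannot be told apart here.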

How the results depend on the processing

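With 1 library per condition no spread between cultures was measured. Counts of ligand genes called between 2 libraries, which are 5 for M1 against M0, 1 for RM1 against M1, 0 for RM2 against M2 and 5 for RM1 against RM0, became 2, 0, 0 and 1 at 4-fold, beside 653, 84, 12 and 340 genes called in all. At 1.5-fold they became 4 for RM1 against M1 and 1 for RM2 against M2, beside 2036 and 848 genes in all. Without a filter on counts 2 were called for RM1 against M1, Pdcd1lg2 with 5 and 0 counts being the second, and with library totals 3 were called for RM1 against RM0. The 13 alternatives to the LPS plus IFN-γ term left 5 or 6 ligand genes passing. Genes passing for IL-4, 20 in all, became 43 with DESeq2, 56 without a filter, 5 with GC and length trends removed, 0 without an irradiation term and 1348 without M1 and RM1, where 1 ligand gene passed. Genes passing for irradiation, 60 in all, became 116 with DESeq2, 156 without a filter, 32 with GC and length trends removed, 0 without a polarization term, where Cd274 was at -0.11, and 534 without M1 and RM1, where 1 ligand gene passed and Icam1 was at 0.0486. For the interaction 992 genes passed, against 154 with DESeq2 and 400 without a filter, and 2 ligand genes passed in each, Cd40 and Icam1. Leaving out 1 library at a time gave 3702 to 6829 genes for LPS plus IFN-γ, with Icosl at -0.43 to 0.48 and Icam1 at -0.20 to 0.77. For IL-4 it gave 18 to 1405 genes and 0 to 1 ligand genes, with Cd86 at -0.55 to 0.0438, Cd40 at -0.36 to 0.24, Icosl at -0.61 to 0.069 and Icam1 at -0.51 to 0.0734. For irradiation it gave 85 to 632 genes and 0 to 2 ligand genes, with Icosl at -0.43 to 0.0836 and Icam1 at -0.47 to 0.0419. In these fits a lone library of a state is assumed to vary like the others. Of 48 ranks of levels per length, 33 stayed with the longest transcript and 8 with the listed span as the length. The causes of these differences were not tested.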
